A study of Homo sapiens with 4 samples.

Results

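The ABC transporter genes were taken as the protein-coding genes of the deposited table whose name starts with ABC, a subfamily letter from A to G and a digit. The rule found 46 genes among 19931 protein-coding genes and 60544 genes in all, and it used no measured value. Another 16 entries with such a name were pseudogenes or antisense RNAs and were left out. None of these had more than 50 counts in a library, and 8 had 0 counts in all 4 libraries. The genes were measured by poly(A) RNA sequencing in PC3, an established human prostate cancer cell line grown in serum-containing medium. The control arm, shNC, and the arm labelled sh812 had 2 libraries each. The series compares METTL3 knockdown with control, and no other label than sh812 is left for the knockdown arm. METTL3 is the catalytic subunit of the enzyme complex that places N6-methyladenosine (m6A) on messenger RNA. Both arms are the same line, the knockdown arm carries 1 hairpin, and the labels do not say whether replicates were separate cultures, so the p-values measure only the spread between these libraries.

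ABC proteins bind and hydrolyse ATP through a conserved nucleotide-binding domain. Most couple it to membrane-spanning helices and move lipids, sterols, peptides, drugs or drug conjugates across a membrane. Some are a single long chain, others are dimers of shorter chains, and the ABCE and ABCF proteins have no membrane span and act in translation. In cancer cells the family is best known for drug efflux, and in lipid-handling cells for cholesterol and phospholipid export.

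Total counts ran from 31450648 to 37041330 per library. METTL3 was at 44.3 and 43.6 CPM (counts scaled to a common sequencing depth with edgeR's TMM factors) in the shNC libraries and at 7.66 and 8.75 CPM in the sh812 libraries, 18.7% of the control mean (log2 fold change -2.42, SE 0.11, adjusted p = 5.54e-14 in edgeR). The epithelial markers KRT8, KRT18, EPCAM and CDH1 were all above 1 CPM in every library, with a summed level of 440.7 to 499 CPM in shNC and 551 to 567 CPM in sh812. KLK3 and CD3E were at 0 counts in all 4 libraries, and the 4 leukocyte markers together stayed under 0.9 CPM. Of the 3 endothelial markers PECAM1 alone was above 1 CPM, at 23.8 and 23.7 CPM in shNC and 32.9 and 38.5 CPM in sh812. The 4 fibroblast markers summed to 43.8 to 50.2 CPM over the 4 libraries. The summed level of the 4 androgen axis genes was 28.8 and 30.2 CPM in shNC and 11.5 and 13.9 CPM in sh812. The part of these differences in the results below was not tested, and in bulk RNA fewer cells of a type and less RNA per cell cannot be told apart.

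PC3 cells expressed 26 of the 46 genes, counting a gene as expressed at 1 CPM or more in both shNC libraries. The family took 0.141% to 0.144% of all counts in each of the 4 libraries. The 5 members with the most counts, among them ABCE1, ABCF1, ABCF3 and ABCD3, held 57.1% and 57.7% of the family's counts in shNC and 59.5% and 58.9% in sh812. Levels of different genes were compared as RPKM, here CPM per kilobase of annotated exon. The expressed members described here spanned a wide range, from 0.115 ± 0.00394 RPKM for ABCA8 to 39.7 ± 1.07 RPKM for ABCF1 (SD, n = 2 shNC libraries).

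**Figure D1:**
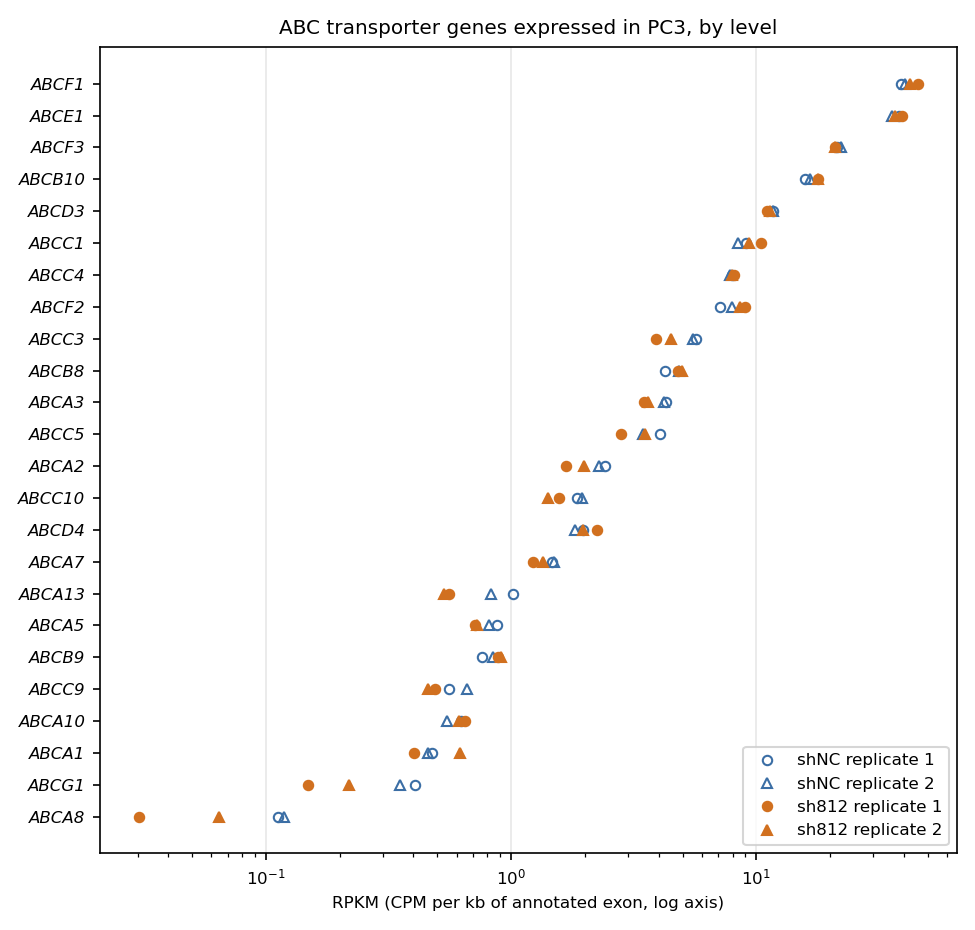
RPKM of 24 of the 26 ABC genes expressed in PC3, on a log axis, ordered by their shNC mean. Open blue symbols are the 2 shNC libraries and filled orange symbols the 2 sh812 libraries. ABCF1 and ABCE1 lie above 35 RPKM in all 4 libraries, and the separation of the arms is widest for ABCA8, ABCG1 and ABCA13, all under 1.1 RPKM.

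The soluble members were among the most abundant. ABCF1, which takes part in translation initiation, had 39.7 ± 1.07 RPKM, ABCE1, a ribosome recycling factor, 36.9 ± 1.82 RPKM, and ABCF3 21.7 ± 0.4995 RPKM in shNC (SD, n = 2). ABCF2 was lower, at 7.55 ± 0.598 RPKM. Its exons share 1914 bases with those of the readthrough gene ABCF2-H2BE1, which had 0 counts in every library, and reads that fall on both genes may be missing from either. The log2 fold changes of the 4 soluble genes lay between -0.057 and 0.22. The edgeR test described below, DESeq2 and limma-voom called 10.8%, 11.8% and 11.3% of all genes given an adjusted p. They called 0 of these 4 soluble genes, which are too few to set against those shares. At an unadjusted p under 0.05 in edgeR 2 of them, ABCF1 and ABCF2, were higher. ABCE1 was at 239 and 223 CPM in shNC and at 246 and 230 CPM in sh812, so the arms overlapped. It shares 469 exon bases with ANAPC10 and 276 with OTUD4 on the opposite strand. Its log2 fold change was 0.044 (SE 0.061, adjusted p = 0.724 in edgeR).

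Among the peroxisomal importers of fatty acyl chains, ABCD3 had 11.7 ± 0.0132 RPKM in shNC and 11.2 ± 0.239 RPKM in sh812 (SD, n = 2), and its log2 fold change was -0.055 (SE 0.066, adjusted p = 0.669 in edgeR). ABCD2 had 10 to 18 counts in a library.

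The mitochondrial members are ABCB transporters of very different abundance. ABCB10, an inner membrane protein needed for heme synthesis in red cell precursors, had 16.2 ± 0.564 RPKM in shNC (SD, n = 2). ABCB8, another inner membrane transporter, had 4.55 ± 0.431 RPKM. Their log2 fold changes were 0.14 and 0.10, and neither passed the test (adjusted p = 0.230 and 0.509 in edgeR). Of the 4 mitochondrial genes edgeR, DESeq2 and limma-voom called 0, where they called 10.8%, 11.8% and 11.3% of all genes given an adjusted p. The 4 genes are too few to set against those shares, and 1 of them had an unadjusted p under 0.05 in edgeR. ABCB6, a porphyrin transporter, had only 6 to 15 counts in a library. The annotation places 2864 of its exon bases inside another gene on the same strand that also had 0 counts throughout, so its level is uncertain.

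The lysosomal members were less abundant. ABCD4, which serves the release of vitamin B12 from lysosomes, had 1.89 ± 0.110 RPKM in shNC, and the peptide transporter ABCB9 had 0.801 ± 0.0614 RPKM (SD, n = 2). ABCB9 overlaps exons of genes on the opposite strand, so its count is uncertain, and ABCD4 shares 624 exon bases with a noncoding gene on its own strand. Both had a log2 fold change above 0 and neither passed the test (adjusted p = 0.452 and 0.469 in edgeR).

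Adjacent genes in the order of RPKM were separated in the shNC libraries except for ABCC4 with ABCF2 and for ABCB8 with ABCA3, whose ranges overlapped, among the 16 highest. The order depends on the length used. With the length of 1 representative transcript in place of all annotated exons, ABCE1 ranked highest, at 58.9 RPKM against 51.6 for ABCF1 and 43.1 for ABCF3, and ABCD3 moved from rank 7 to rank 5.

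The 5 drug efflux genes expressed in PC3 were all ABCC genes. ABCC1 (MRP1), a pump for glutathione and other conjugates, had 8.75 ± 0.496 RPKM, and ABCC4 (MRP4), which exports cyclic nucleotides and prostaglandins, had 7.90 ± 0.100 RPKM in shNC (SD, n = 2). ABCC3, ABCC5 and ABCC10 had 5.59 ± 0.116, 3.76 ± 0.428 and 1.90 ± 0.0680 RPKM. The classical multidrug pumps were at the edge of detection. ABCB1 (P-glycoprotein) had 2 and 0 counts in shNC and 0 and 0 in sh812. ABCG2 had 4 and 0 counts in shNC and 6 and 2 in sh812. Both were below the filter on low counts and were not tested, and 3 counts correspond to 0.0791 to 0.0949 CPM in these libraries. The exact 95% Poisson interval of the 2 ABCB1 counts in shNC is 0.242 to 7.22 counts. It covers counting error only and takes the counts as independent. If both mates of a pair were counted, they are not independent and the interval is too narrow. Of the other efflux genes, ABCC2 had 10 to 18 counts in a library, ABCC11 2 to 6 counts, ABCB5 2 counts in 1 library alone, and ABCC12 0 counts in all 4.

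In all, 12 members were not tested, and none of them had more than 8 counts in a library. Besides those named, they include the bile and gut transporter genes ABCB4, ABCG5 and ABCG8, the skin lipid transporter gene ABCA12 and ABCA9. ABCC8, the sulfonylurea receptor of pancreatic beta cells, was at 0 counts in all 4 libraries, whereas its relative ABCC9 was expressed, at 6.46 and 7.65 CPM in shNC. It had 5.70 and 5.34 CPM in sh812, and its log2 fold change was -0.35 (SE 0.17, adjusted p = 0.192 in edgeR). A further 8 members passed the filter without reaching 1 CPM in both shNC libraries. These were ABCA4, ABCG4, ABCD2, ABCB11, ABCC2, ABCB6, ABCA6 and ABCC6. ABCC6 passed it through the sh812 libraries alone, with 6 and 2 counts in shNC and 10 and 26 in sh812. It has near-identical pseudogene copies, so its count is uncertain. ABCA6 passed it through the shNC libraries alone, with 12 and 10 counts there and 6 and 6 in sh812.

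The comparison of sh812 with shNC asked which members changed with METTL3 knockdown. It used edgeR's quasi-likelihood test over all 16802 genes that passed the filter, with Benjamini-Hochberg adjustment, and genes with an adjusted p under 0.05 were called. Of the 34 members tested, 4 were called, all 4 of them lower in sh812 and 0 higher. They were ABCA13, ABCC3, ABCA2 and ABCG1. Over all genes 10.8% were called, 5.42% as lower and 5.43% as higher, so the share of tested members called, 11.8%, was close to that of the whole transcriptome. At an unadjusted p under 0.05, 9 members were lower and 6 higher, and DESeq2 and limma-voom also called 0 higher. The share of all genes at that unadjusted threshold is not given here. Such counts, also those for groups of genes, therefore have no background and are not read as a trait of the members. The median log2 fold change was -0.038 over the tested members and -0.0056 over all genes. In 15 members both sh812 libraries lay below both shNC libraries and in 8 they lay above, which is 44.1% and 23.5% of those tested, against 27.4% and 26.2% of all genes tested. These counts include ABCA6 and ABCC6, whose directions were fixed by the filter. Whether the family as a whole has a direction was not tested, so the counts are not read as one. Without sh812 replicate 1, where a single library stands for an arm and is assumed to vary like the others, 1 member was called and 3.28% of all genes. Without shNC replicate 2, 8 members were called, 5 lower and 3 higher, and 18.1% of all genes.

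**Figure D2:**
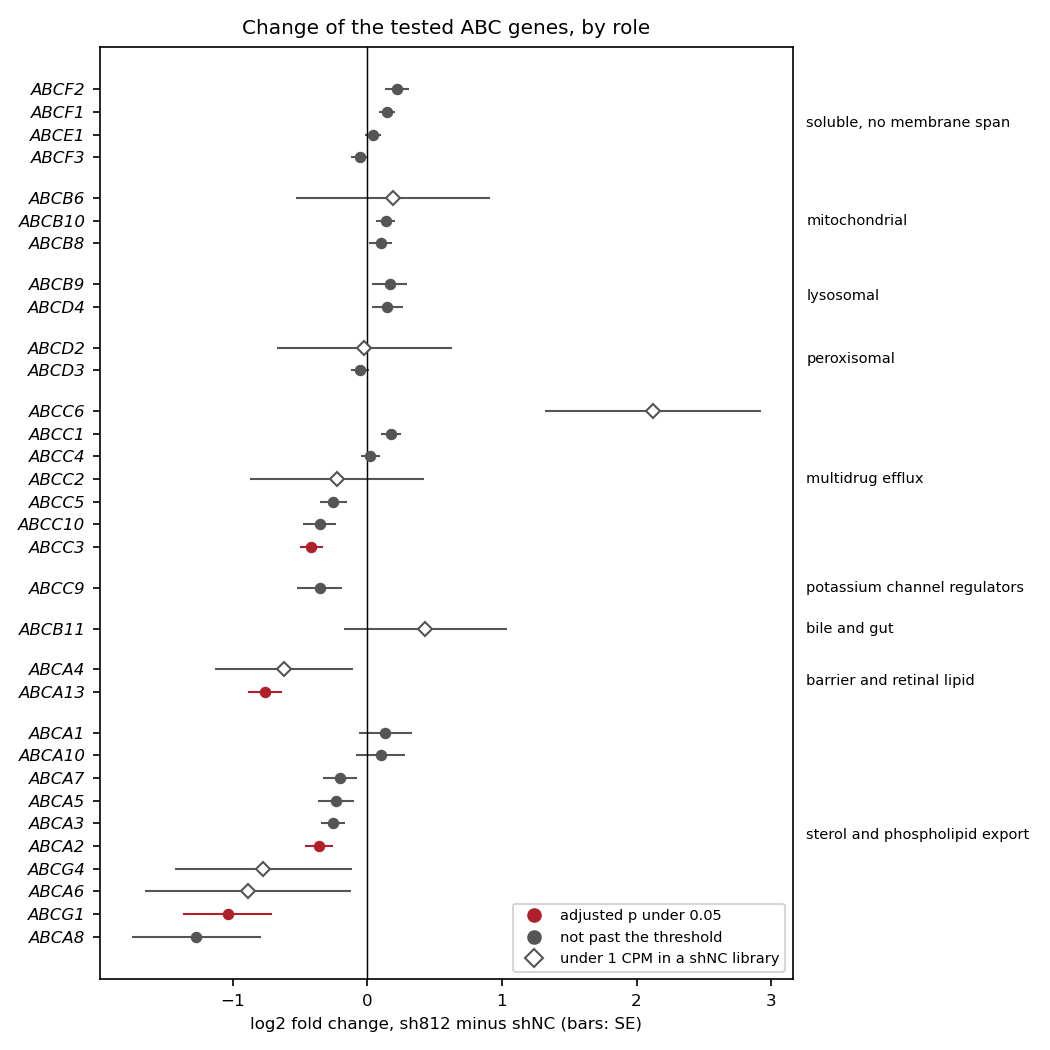
Log2 fold change (sh812 minus shNC) with its SE for 32 of the 34 ABC genes tested, grouped by role. Red marks the 4 genes with an adjusted p under 0.05, and open diamonds are genes under 1 CPM in a shNC library. The red genes all lie left of 0. ABCA6 and ABCC6 passed the filter on low counts through 1 arm alone, so the side on which they lie was fixed by it.

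ABCA13 had the smallest p-value of the family. It encodes a very large ABCA protein of uncertain substrate, and lies on chromosome 7 from 48171458 to 48647496 on the plus strand. It was at 19.5 and 15.8 CPM in shNC and at 10.7 and 10.2 CPM in sh812, on 364 to 740 counts. Both sh812 libraries were well below both controls, although the controls differed more from each other than the sh812 libraries did. Against 17.6 ± 2.64 CPM in shNC, sh812 had 10.4 ± 0.362 CPM (SD, n = 2), or 59.1%. edgeR gave a log2 fold change of -0.76 with an SE of 0.13 (adjusted p = 0.000297). ABCA13 was called under each of the 15 alternative settings tried, though the prior count of 2 alters the fold change alone and cannot alter a call. Its value was lowest without shNC replicate 2 (-0.90) and highest without shNC replicate 1 (-0.60).

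ABCC3 (MRP3) exports glucuronide conjugates and bile salts, and was the only efflux gene called. It lies on chromosome 17 from 50634777 to 50692252 on the plus strand. It was at 54.5 and 53.0 CPM in shNC and at 37.6 and 43.1 CPM in sh812. The controls were close together and both sh812 libraries lay below them. Against 53.8 ± 1.12 CPM in shNC, sh812 had 40.3 ± 3.86 CPM (SD, n = 2), or 75.0%. The log2 fold change from edgeR was -0.41 with an SE of 0.083 (adjusted p = 0.00183). Without sh812 replicate 1 the value was -0.32 and the adjusted p in edgeR was 0.113.

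ABCA2, a lysosomal and endosomal transporter linked to sterol handling, lies on chromosome 9 from 137007227 to 137028922 on the minus strand. It was at 27.8 and 26.2 CPM in shNC and at 19.3 and 22.8 CPM in sh812. The arms did not overlap, and the log2 fold change was -0.36 (SE 0.10, adjusted p = 0.0254 in edgeR). The call was lost without sh812 replicate 1 (-0.24, adjusted p = 0.422), without shNC replicate 1 (-0.32, adjusted p = 0.0586) and with each library's trend on exon length removed (-0.29, adjusted p = 0.0722 in edgeR).

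ABCG1, which passes cholesterol to high-density lipoprotein, lies on chromosome 21 from 42199689 to 42297244 on the plus strand. It had 94 and 68 counts in shNC and 32 and 48 in sh812, or 2.48 and 2.15 against 0.912 and 1.34 CPM. This was the deepest fall among the called members, to 48.7% of the control mean, and also the one with the fewest counts. The log2 fold change was -1.04 (SE 0.33, adjusted p = 0.0451 in edgeR), close to the threshold. The call was lost with DESeq2 (adjusted p = 0.0896), with the length trend removed (-1.01, adjusted p = 0.0586), and without shNC replicate 1 (-0.93, adjusted p = 0.157). It was also lost without sh812 replicate 1 (-0.79, adjusted p = 0.334) and without sh812 replicate 2 (-1.34, adjusted p = 0.0515 in edgeR).

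**Figure D3:**
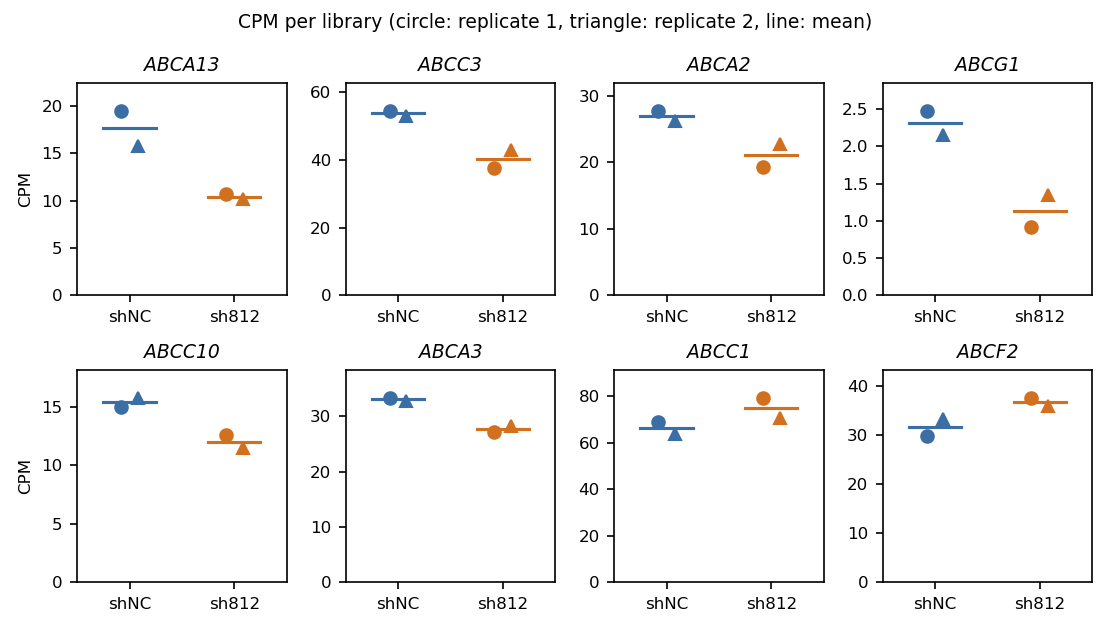
CPM in each library for the 4 called genes (top row) and for ABCC10, ABCA3, ABCC1 and ABCF2 (bottom row), with the mean of each arm as a line and each vertical axis starting at 0. The arms are separate in all 8 panels, and only the top row has an adjusted p under 0.05.

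METTL3 methylates adenosines in short motifs around GAC, and m6A is known to be concentrated near stop codons. The occurrence of GGACT nearest the stop codon was therefore read from the representative GENCODE 29 transcript of each called gene, and is shown on the transcript strand with the motif in capitals.
ABCC3: cagagatgctGGACTtgcctaaaat
ABCG1: agctgtacctGGACTtcatcgtact
ABCA2: gctgggccagGGACTcaacaatggg
ABCA13: atagtaacaaGGACTattttctatt
In ABCC3 the motif lies in coding sequence, centred 7 bases before the first base of the stop codon (GRCh38 chr17:50691179-50691203, plus strand). In ABCG1 it is also coding, 83 bases before the stop codon (chr21:42296295-42296319, plus strand). In ABCA2 it lies in the 3′ UTR, 62 bases after that base (chr9:137007857-137007881, minus strand). ABCA13 has its nearest one 451 bases after it, in the 3′ UTR (chr7:48645949-48645973, plus strand). A match is not a measured m6A site. For contrast, ABCF3 and ABCC4 hold the motif near the stop codon too, 19 and 55 bases after its first base, and had log2 fold changes of -0.057 and 0.021, neither called.
ABCF3: accaggctgaGGACTcgcccaggac
ABCC4: actagtttttGGACTatgtaaacca
These windows are chr3:184193703-184193727 on the plus strand and chr13:95021510-95021534 on the minus strand.

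Of the 4 called genes, 3 had a GGACT on the transcript strand within 200 bases of the stop codon, as did 10 of the 22 other expressed members and 37.2% of the 13228 protein-coding genes tested that had a coding transcript. The median density over the whole transcript was 1.14 motifs per kb in the 4 called genes, 0.703 in the 22 others and 0.932 over all those genes. Genes called lower in the whole table had it near the stop codon in 36.3% of cases. ABCC1, which was not lower, had 13 copies in its transcript and 2 near the stop codon, and ABCE1 was the only expressed member with no copy.

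Of the 10 tested members involved in sterol and phospholipid export, ABCA2 and ABCG1 were called lower, against 5.42% of all genes, and the other 8 were not called. Where genes under a mean of 1 CPM over the 4 libraries were left out, 7 remained, of which 5 had a log2 fold change below 0 and 2 above, with a median of -0.24. ABCA8, ABCG4 and ABCA6 were also below 0 but under that level, and the direction of ABCA6 was fixed by the filter, since its shNC libraries alone passed it. ABCA3, the lung surfactant lipid transporter, was at 33.3 and 32.8 CPM in shNC and at 27.2 and 28.2 CPM in sh812. Its log2 fold change was -0.26 (SE 0.090, adjusted p = 0.0684 in edgeR), and it was called with library size scaling (-0.30, adjusted p = 0.0369). ABCA7, a phospholipid exporter studied in Alzheimer disease, had -0.20 (SE 0.13, adjusted p = 0.352 in edgeR). ABCA1, the exporter that loads apolipoprotein A-I with cholesterol, had arms that overlapped. It was at 5.38 and 5.19 CPM in shNC and at 4.56 and 7.04 CPM in sh812, so its sh812 libraries lay on either side of the controls. Its log2 fold change was 0.13 (SE 0.19, adjusted p = 0.735 in edgeR), and without sh812 replicate 2 it was -0.21.

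The cluster of ABCA genes on chromosome 17, all on the minus strand, had values on both sides of 0. In order along the chromosome it holds ABCA8, ABCA9, ABCA6, ABCA10 and ABCA5. ABCA8 had 48 and 42 counts in shNC and 12 and 26 in sh812, a log2 fold change of -1.27 with an SE of 0.48 (adjusted p = 0.0899 in edgeR). It passed the threshold only when no filter on low counts was applied (adjusted p = 0.0470 in edgeR). ABCA10 had 0.099 (SE 0.18) and ABCA5 -0.23 (SE 0.13), and these 2 genes share 318 exon bases. ABCA9 had 0 to 2 counts.

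Of the 7 efflux genes tested, 1 was called, where 10.8% of all genes were. The 7 include ABCC6, which passed the filter through the arm where it is high. ABCC10 (MRP7) was at 15.0 and 15.8 CPM in shNC and at 12.6 and 11.5 CPM in sh812, a log2 fold change of -0.35 with an SE of 0.12 (adjusted p = 0.0613 in edgeR). It was called with library size scaling (adjusted p = 0.0380) and when genes under a mean of 1 CPM were left out (adjusted p = 0.0487 in edgeR). ABCC1 was at 69.0 and 63.7 CPM in shNC and at 79.2 and 70.8 CPM in sh812, a log2 fold change of 0.18 with an SE of 0.075 (adjusted p = 0.137 in edgeR). It was called higher with the length trend removed (0.23, adjusted p = 0.0397) and without shNC replicate 1 (0.24, adjusted p = 0.0238 in edgeR). ABCC4 stood between 67.6 and 70.0 CPM in the 4 libraries, and its log2 fold change of 0.021 (SE 0.070) was -0.024 with library size scaling. ABCC5 had 46.5 and 39.6 CPM in shNC and 32.0 and 40.3 CPM in sh812. Its arms overlapped, and the log2 fold change was -0.25 (SE 0.10, adjusted p = 0.109 in edgeR). ABCC5 was called without sh812 replicate 2 (-0.43, adjusted p = 0.0252) and without shNC replicate 2 (-0.36, adjusted p = 0.00142 in edgeR).

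By subfamily, 2 of the 10 tested ABCA genes and 0 of the 6 tested ABCB genes were called, where 10.8% of all genes were. Counts this small are not read as a difference from that share. Of those with a mean of at least 1 CPM over the 4 libraries, 5 of 7 ABCA genes had a log2 fold change below 0 and 4 of 4 ABCB genes had one above 0. DESeq2 and limma-voom called 0 ABCB genes too, and 1 of them had an unadjusted p under 0.05 in edgeR. The medians of these 7 and 4 genes were -0.24 and 0.15, against -0.0056 over all genes in the main fit. The share of all genes on each side of 0 is not given here, and the split by sign was not tested. With 1 library left out, 8 or 9 of all 10 ABCA genes were below 0 and 5 or 6 of all 6 ABCB genes above 0. The 10 include ABCA6, whose direction was fixed by the filter. These fits share libraries with each other and with the main fit, so they are no independent repeat. ABCA genes are long, with a median of 11296.5 annotated exon bases among those tested, against 6474.5 for the ABCB genes. Length went with the change in these libraries. Over 12257 genes above a mean log2 CPM of 1, the Spearman correlation of exon length with the difference between arms was -0.30. With the difference between the 2 shNC libraries (replicate 2 minus 1) it was also -0.30, and with that between the 2 sh812 libraries it was 0.031. Across the 26 expressed members it was -0.47 for the fitted change, -0.27 for the 2 shNC libraries and 0.22 for the 2 sh812 libraries. With the length of 1 representative transcript it was -0.28 for the fitted change. All these points share the same 4 libraries.

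Split at 7000 exon bases, a value chosen after the data were seen, 11 of the 18 longer expressed members had a value below 0, with a median log2 fold change of -0.22. Of the 8 shorter ones 6 had a value above 0, with a median of 0.14. The same medians over all genes at 1 CPM or more in both shNC libraries were -0.069 and 0.024. With each library's length trend removed, the members' medians were -0.15 and 0.13, and the correlation across the 26 members was -0.26. Then 2 members were called lower, ABCA13 (-0.67, adjusted p = 0.00088) and ABCC3 (-0.35, adjusted p = 0.00666), and 1 higher, ABCC1, while 9.97% of all genes were called.

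**Figure D4:**
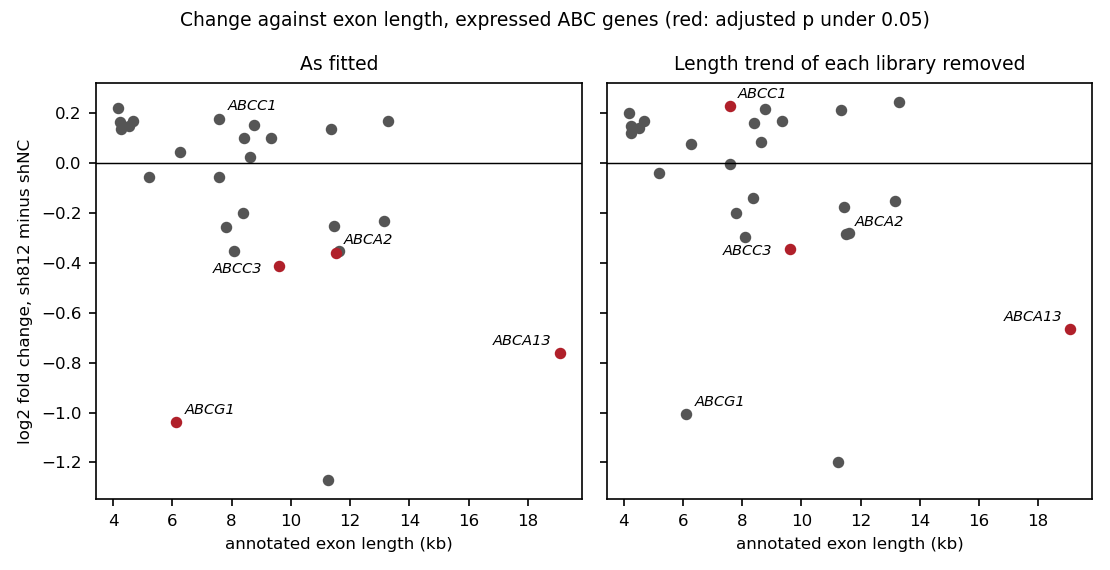
Log2 fold change (sh812 minus shNC) against annotated exon length in kb for the 26 expressed ABC genes, as fitted (left) and with each library's length trend removed (right). Red marks an adjusted p under 0.05, which holds for ABCA13 and ABCC3 in both panels, for ABCA2 and ABCG1 on the left only and for ABCC1 on the right only.

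Genes that act with ABC proteins were read from a list of 46, of which 44 were tested. Of these 3 were called higher and 3 lower, where 5.43% and 5.42% of all genes were, so the count is near that background. With library size scaling 1 was higher and 5 lower, and over all genes 3.34% were higher and 7.9% lower. Among ABC proteins with other names, the peptide transporter genes TAP1 and TAP2 were at 53.6 ± 5.65 and 55.1 ± 0.393 CPM in shNC (SD, n = 2), with log2 fold changes of -0.071 (SE 0.084) and 0.018 (SE 0.074), and neither passed the test (adjusted p = 0.668 and 0.918 in edgeR). CFTR, the chloride channel of cystic fibrosis, had 0 to 6 counts and was not tested. Of the 16 partner genes 0 were called in edgeR, DESeq2 or limma-voom, and 1 had an unadjusted p under 0.05 in edgeR. Of all genes given an adjusted p, these methods called 10.8%, 11.8% and 11.3%, so 0 of 16 is not read as a difference.

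The 3 genes called lower all came from the regulators and sterol handling genes of the list, and NPC1 and SREBF2 are described here. NPC1, which releases cholesterol from lysosomes, was at 222 and 226 CPM in shNC and at 162 and 169 CPM in sh812. Its log2 fold change was -0.44 with an SE of 0.059 (adjusted p = 2.16e-05 in edgeR). NPC1 was called under all 15 alternatives, though the prior count of 2 cannot alter a call. SREBF2, the transcription factor of the sterol response, had 64.1 and 57.3 CPM against 49.6 and 51.4 CPM (log2 fold change -0.27, adjusted p = 0.0274 in edgeR). Those called higher were PPARG, a lipid-sensing nuclear receptor (0.32, adjusted p = 0.00128), and the glutathione transferase genes GSTM3 and GSTP1 (0.22 and 0.20, adjusted p = 0.0372 and 0.0402 in edgeR). The calls of SREBF2 and GSTP1 were lost with the length trend removed (adjusted p = 0.0582 and 0.257 in edgeR). Without sh812 replicate 1 these and GSTM3 were lost, and without sh812 replicate 2 PPARG was lost as well (adjusted p = 0.0787 in edgeR), leaving 1 call in the list, NPC1. Without shNC replicate 1 SREBF2, GSTP1 and GSTM3 were lost (adjusted p = 0.164, 0.157 and 0.0625 in edgeR), and with library size scaling GSTP1 and GSTM3 (adjusted p = 0.0953 and 0.0966). GSTM3 was also lost with no filter on low counts (adjusted p = 0.0521 in edgeR). Cholesterol genes had been described in these libraries before the list was made, so their direction is no independent evidence.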

How the data were processed

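The table deposited by the authors holds raw counts per gene, as whole numbers with a different total in each of the 4 libraries. Per the submitters' processing notes, fastp, STAR 2.7.1a, featureCounts, DESeq2 and the build hg38 were used. The annotation release, the strand setting and whether reads or pairs were counted are not given in the sources used here. Of the counts from 1 to 10, 70.7% to 71.4% were even, so a count may be a read rather than a pair.

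Counts were filtered with filterByExpr (minimum count 10), TMM-scaled and tested with edgeR 4.0.16 in R 4.3.3, with no covariate. The SE comes from the F statistic. Exon lengths, positions and transcripts come from GENCODE 29, which held all 46 members and 16635 of the 16802 genes tested. The length trend was a lowess curve (span 0.3) per library, used as an offset. On simulated counts for this comparison (16430 genes tested), 77.6% of the changes of log2 1 and 61.2% of those of log2 0.5 were called, with 10 false calls among 146. The simulation changed 98 of the tested genes at each size, a smaller share than was called in the data. It held no length trend, so these rates may not hold for the real libraries.

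Members, role groups and lists were chosen with earlier results of these data known. Named are METTL3, all called members, the 10 of highest RPKM, ABCB1, ABCC1 and ABCG2, and the called related genes with TAP1, TAP2 and CFTR. Some genes that this rule selects are not reported here, and they stay in the counts. Other members are named in their role group, and ABCA3, ABCC10, ABCA8, ABCC5, ABCA1 and ABCA7 were given in more detail after their values were seen. Alternatives were RLE, upper quartile and library size scaling, other filters, limma-voom 3.58.1, DESeq2 1.42.0, a replicate block, a prior count of 2, the length trend and each library left out.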

Additional observations from a re-analysis of the deposited data

How the results depend on the processing

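Of the 4 called members, all 4 were called with RLE, upper quartile and library size scaling, limma-voom, either other filter, the replicate block (4 called) and, chosen after seeing the data, every count halved. DESeq2 called 3 of them, and 11.8% of the 12567 genes it gave an adjusted p. Library size scaling called 6 in all, and 11.2% of all genes, and the length trend removed left 2 of the 4 and added ABCC1. Leaving out 1 library gave 1 to 8 called members, and 1 to 9 called related genes against 6. METTL3 ran from -2.52 to -2.33 in those fits. ABCE1 (0.044) was -0.0014 with library size scaling and between -0.0026 (without sh812 replicate 1) and 0.095 (without shNC replicate 1) with a library left out, and ABCC4 (0.021) was -0.024 with library size scaling. Without shNC replicate 2, ABCF1 and ABCF2 passed the threshold as higher (0.18 and 0.31). ABCA1 (0.13) was lowest without sh812 replicate 2 (-0.21) and highest without sh812 replicate 1 (0.42). TAP1 (-0.071) was 0.0060 without sh812 replicate 2, lowest without shNC replicate 1 (-0.18) and highest without shNC replicate 2 (0.045), and TAP2 (0.018) was -0.027 with library size scaling. For these the cause was not tested. The count of expressed members was 26, and 23 to 28 under the other thresholds. The replicate numbers are not said to mark a batch, and deviations of same-numbered libraries had a correlation of 0.0164 across genes, so the samples were not paired. With 2 libraries per arm small changes can be missed, and members under 10 counts cannot be compared.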
